A study of Mus musculus with 27 samples.

Results

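The 10 genes described here encode factors that silence retroelements, the virus-derived repeats of the genome: Trim28, Setdb1, Atf7ip, Zfp809, Morc3, Chaf1a, Chaf1b, Ehmt2, Kdm1a and Smchd1. They were taken by name from a table of counts for 55367 genes, and all 10 were found. RNA had been measured in pools of 15 to 20 wild-type mouse embryos, each collected at E2.75 (embryonic age in days), the morula stage, in 27 libraries that formed 9 groups of 3. In 4 groups, cultured embryos received Vehicle, 500 nM SAHA, 50 nM TSA or 10 uM A485 from E2.5, doses as in the file headers. SAHA and TSA inhibit histone deacetylases, and A485 inhibits the histone acetyltransferases p300 and CBP. In the other 5 groups, zygotes were injected into the cytoplasm at E0.5 with siControl, siP300, siKat6a, siKat6b or siComb, siRNAs named for the acetyltransferases p300, KAT6A and KAT6B; the labels do not say what siComb held. No strain is given in the sources used here. The title of the series names miR-203 and epigenetic control of early cell fate.

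Many retroelements are kept silent by KRAB zinc finger proteins, which bind their DNA and recruit TRIM28. TRIM28 in turn brings in the histone methyltransferase SETDB1, which methylates lysine 9 of histone H3 with the help of its partner ATF7IP. ZFP809 is such a zinc finger protein and was found through its binding to the primer binding site of murine leukaemia viruses. Other layers are the H3K9 methyltransferase G9a (Ehmt2), the histone demethylase LSD1 (Kdm1a), the subunits of the histone chaperone CAF-1 (Chaf1a and Chaf1b) and the ATPase-like proteins MORC3 and SMCHD1. MERVL, an endogenous retrovirus transcribed in mouse embryos at the 2-cell stage and silenced afterwards, is derepressed in embryonic stem cells that lack LSD1, G9a or CAF-1.

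The promoters of 5 of the genes are shown first. Zfp809 had the largest rise and Ehmt2 the largest fall of the members with the deacetylase inhibitors, while Trim28, Kdm1a and Smchd1 were, with Ehmt2, the members with the largest changes under A485. Each sequence is RefSeq's, on build GRCm38.p6, from 250 bases before to 50 bases after the annotated start, written 5′ to 3′ on the strand of the gene. Capitals mark CCAAT boxes (CCAAT or ATTGG), GC boxes (GGGCGG or CCGCCC) and the YY1 motif (AAGATGGC or GCCATCTT).
Zfp809, chr9:22225453-22225752 (+): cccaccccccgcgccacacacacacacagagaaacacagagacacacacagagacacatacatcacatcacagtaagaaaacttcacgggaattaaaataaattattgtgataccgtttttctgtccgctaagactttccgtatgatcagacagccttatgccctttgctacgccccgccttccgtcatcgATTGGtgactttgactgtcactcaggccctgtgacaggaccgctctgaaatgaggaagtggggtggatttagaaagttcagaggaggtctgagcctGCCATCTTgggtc
Ehmt2, chr17:34898224-34898523 (+): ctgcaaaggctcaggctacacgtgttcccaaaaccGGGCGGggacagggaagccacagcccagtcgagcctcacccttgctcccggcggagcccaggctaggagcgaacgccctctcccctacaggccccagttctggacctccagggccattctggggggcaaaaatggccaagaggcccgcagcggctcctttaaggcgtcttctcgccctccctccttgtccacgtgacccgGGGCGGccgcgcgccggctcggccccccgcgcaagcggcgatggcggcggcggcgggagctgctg
Trim28, chr7:13023902-13024201 (+): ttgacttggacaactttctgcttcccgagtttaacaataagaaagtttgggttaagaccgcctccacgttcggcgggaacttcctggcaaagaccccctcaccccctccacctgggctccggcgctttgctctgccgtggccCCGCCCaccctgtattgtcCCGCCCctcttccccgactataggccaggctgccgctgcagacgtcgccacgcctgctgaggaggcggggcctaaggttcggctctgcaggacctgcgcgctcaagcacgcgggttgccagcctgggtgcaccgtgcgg
Kdm1a, chr4:136602674-136602973 (-): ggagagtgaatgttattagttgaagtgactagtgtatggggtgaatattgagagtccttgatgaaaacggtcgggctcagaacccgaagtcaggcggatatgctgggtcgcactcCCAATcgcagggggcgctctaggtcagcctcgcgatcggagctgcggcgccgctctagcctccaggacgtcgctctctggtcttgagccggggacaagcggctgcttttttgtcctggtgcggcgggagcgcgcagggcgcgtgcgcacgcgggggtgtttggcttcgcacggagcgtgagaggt
Smchd1, chr17:71475294-71475593 (-): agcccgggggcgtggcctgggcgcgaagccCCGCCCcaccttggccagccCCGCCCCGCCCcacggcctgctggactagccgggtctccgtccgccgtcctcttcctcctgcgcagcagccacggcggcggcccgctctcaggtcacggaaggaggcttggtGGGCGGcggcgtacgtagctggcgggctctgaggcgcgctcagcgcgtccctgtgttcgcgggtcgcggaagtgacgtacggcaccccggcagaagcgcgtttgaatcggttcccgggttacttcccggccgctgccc
The Zfp809 window held the fewest CpG dinucleotides of the 10 genes, 11 against 23 in Trim28, 28 in Ehmt2, 29 in Kdm1a and 40 in Smchd1, while the median over 32544 promoters of this length was 7. Zfp809 was also the only member with a match to the YY1 motif, which 2.77% of all promoters held, and its CCAAT box was of a kind found in 37.4% of promoters. GC boxes, present in 35.9% of promoters, numbered 4 in Smchd1, 2 in Ehmt2, 2 in Trim28 and 0 in Zfp809 and Kdm1a. A second annotated start of Ehmt2, not shown, gave a window with 40 CpG and 4 GC boxes, and one of Zfp809, also not shown, had the same counts as the window above. Searches on both strands for the motif of DUX (found in 0.0338% of promoters) and for TGACGTCA (CRE, 1.8%), TTTCGCGC (E2F, 0.326%) and TTTGGCGC (E2F, 0.519%) found no match in the windows of any of the 10 genes. A match describes the letters only and is not a binding site.

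All 10 members were transcribed in every library, with at least 22 counts each. Levels below are CPM, which are counts per library total with TMM scaling over the 27 libraries, and between genes they are compared per kb of exon. In Vehicle embryos, Trim28 was the most abundant member, at 57.2 ± 5.10 CPM per kb (SD, n = 3 libraries here and throughout). Chaf1b (16.1 ± 1.13), Zfp809 (15.5 ± 1.56) and Morc3 (14.6 ± 1.75) followed and did not differ beyond their spread. Ehmt2 (7.10 ± 1.37), Chaf1a (6.39 ± 0.281), Kdm1a (5.20 ± 0.194) and Setdb1 (5.05 ± 0.816) stood lower, then Atf7ip (2.23 ± 0.315) and Smchd1 (1.75 ± 0.254). For Atf7ip and Smchd1 the joined exons of all annotated transcripts span 20.7 and 20.0 kb, which lowers their values per kb. In siControl embryos Trim28 was again the most abundant, at 61.5 ± 4.76 CPM per kb, and Zfp809 was second, at 17.9 ± 0.806.

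**Figure D1:**
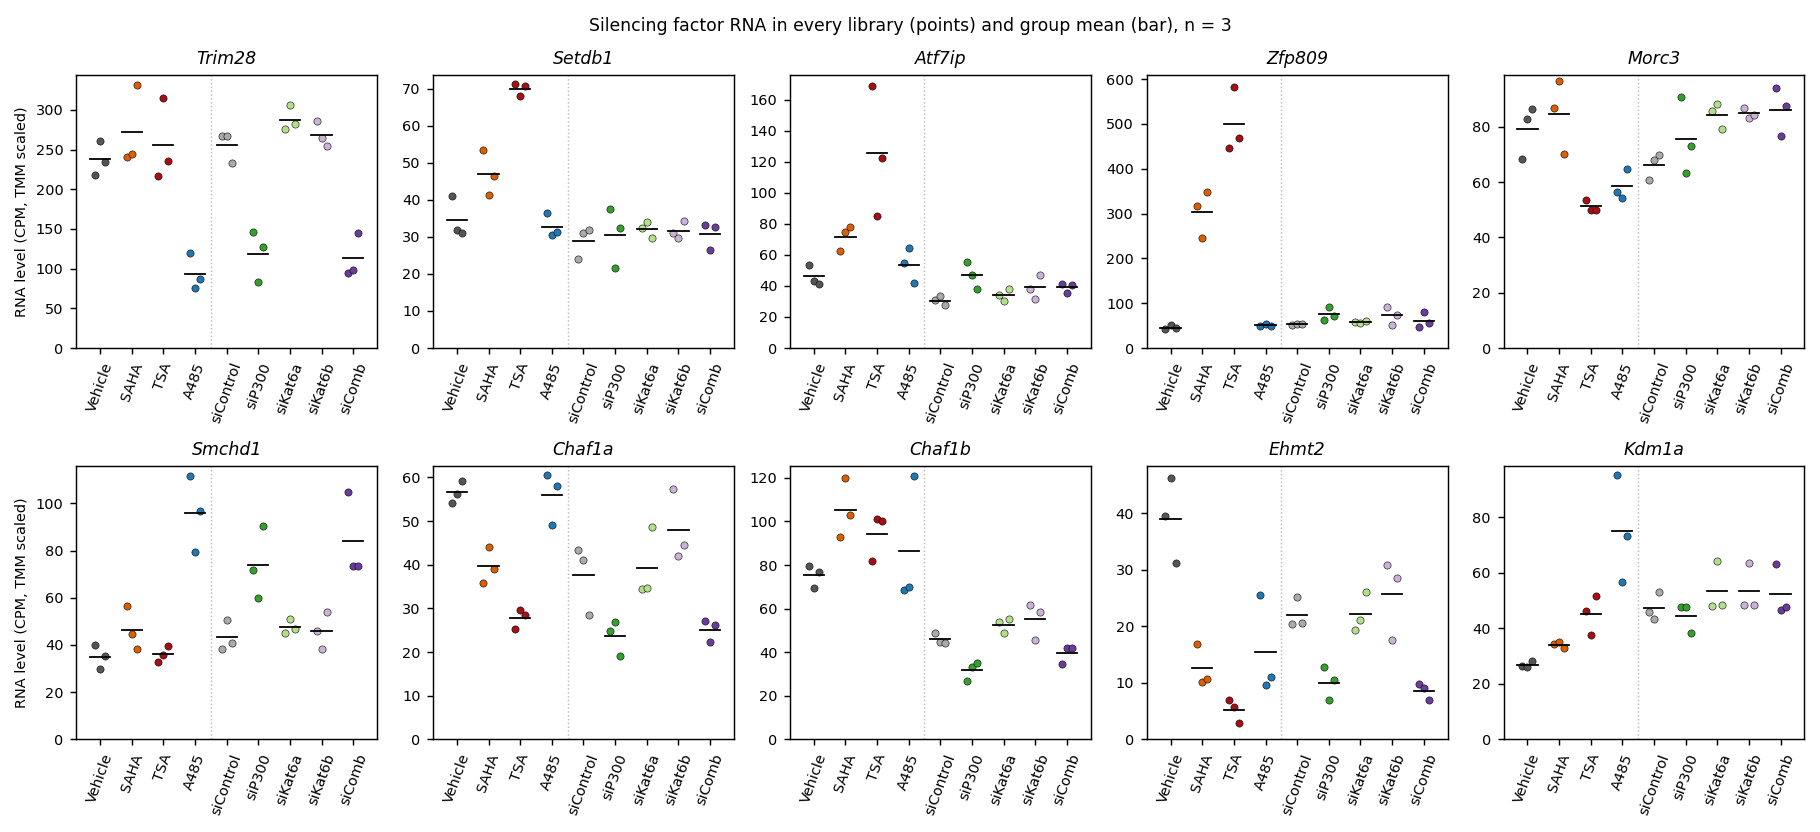
RNA level of each of the 10 genes (CPM, linear axis from 0) in 27 libraries; each point is 1 library, the bar is the mean of 3, and the dotted line separates the inhibitor and siRNA families. Zfp809 is highest in the SAHA and TSA groups, Ehmt2 is lowest in the TSA group, and Trim28 is lowest in the A485, siP300 and siComb groups.

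Over the 9 groups the span between the highest and the lowest mean was 10.9-fold for Zfp809 and 7.51-fold for Ehmt2. It was between 2.39-fold and 4.11-fold for 7 of the others and 1.68-fold for Morc3. For Zfp809 the TSA libraries lay above those of SAHA, and these above the other 7 groups, which overlapped their neighbours in the order except that siKat6a lay above siControl. For Ehmt2, Vehicle lay apart at the top and TSA at the bottom. Trim28 and Smchd1 each had 1 gap, which set A485, siP300 and siComb apart from the other 6 groups, at the lower end for Trim28 and at the upper end for Smchd1. The Vehicle mean was the lowest of the 9 for Zfp809, Kdm1a and Smchd1 and the highest for Ehmt2 and Chaf1a. For Ehmt2 the Vehicle mean (39.0 ± 7.52 CPM) was above that of siControl (22.1 ± 2.74), and for Kdm1a it was below it (26.9 ± 1.00 against 47.4 ± 5.09). Family, route and length of culture differ between these control groups and cannot be told apart.

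Libraries held 7557591 to 11988857 gene counts. In pooled embryos, fewer cells of a type and less RNA per cell cannot be told apart, and since nothing says that the pools of a group were prepared separately, p-values reflect only how far these samples scatter, part of which may be technical. Markers of the morula were present in every library (8 to 11 of 12 with at least 10 counts in all libraries of a group), but many of them fell in 5 treated groups, by the edgeR test described in the next paragraph. Of 11 markers tested, 7 fell with SAHA (beside 14% of all genes), 9 with TSA (26.6%), 9 with A485 (24.2%), 8 in siP300 (15.7%) and 8 in siComb (17.1%), and 1 rose, Dppa3 with TSA. Dppa3 made up most of the summed level in Vehicle. Without it the summed level was 3095 to 3877 CPM in Vehicle, 1333 to 1410 with SAHA, 721 to 866 with TSA and 2025 to 3179 with A485. It was 1786 to 2169 CPM in siControl, 1060 to 1374 in siP300 and 1102 to 1295 in siComb. With Dppa3 it was 2108 to 3322 CPM with A485, 4482 to 6762 with siP300 and 2848 to 4022 with siComb, against 9209 to 15851 in the other 6 groups, SAHA and TSA among them. Markers of cumulus, oviduct, blood and sperm summed to at most 16.4, 36.0, 161 and 29.5 CPM per library. Those of blood and immune cells were highest in siP300 (84.1 to 161 CPM) and siComb (64.3 to 115), against 30.4 to 34.1 in siControl. They were 45.1 to 82.1 CPM with TSA against 10.3 to 22.3 in Vehicle. Cumulus markers, too, were highest in siP300 (11.2 to 16.4 CPM) and siComb (9.59 to 13.5), against 3.27 to 3.67 in siControl. They were 5.20 to 7.45 CPM with A485 against 2.09 to 4.19 in Vehicle. Mitochondrially encoded genes took 0.997 to 1.20% of counts in Vehicle, 1.61 to 2.16% with SAHA, 2.51 to 3.57% with TSA and 2.36 to 2.62% with A485. In the siRNA family they took 4.94 to 6.99% in siP300, 4.86 to 5.41% in siComb and 1.78 to 2.45% in the other 3 groups. The part of these shifts in the results for SAHA, TSA, A485, siP300 and siComb was not tested.

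SAHA and TSA were compared with Vehicle to see which silencing factors follow a block of histone deacetylation. In what follows a gene rose or fell where edgeR's quasi-likelihood test, fitted over all genes, gave a Benjamini-Hochberg adjusted p under 0.05, and ± after a log2 fold change is its standard error. With TSA, 4 members rose (Zfp809, Atf7ip, Setdb1 and Kdm1a) and 3 fell (Ehmt2, Chaf1a and Morc3). Over all 18297 genes tested, 58.1% were called with TSA (31.6% higher, 26.6% lower), so 7 of 10 is near the background and is not a result about the set. TSA and Vehicle libraries did not overlap for 8 members, beside 68.3% of all genes. With SAHA, 1 member rose (Zfp809) and 2 fell (Ehmt2 and Chaf1a), beside 34.2% of all genes (20.2% higher, 14% lower), and 7 did not overlap with Vehicle, beside 53.8%. Both comparisons use the same Vehicle libraries. Median log2 fold changes of the members were 0.25 with TSA and 0.33 with SAHA, against 0.08 and 0.06 over all genes tested.

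Zfp809, the virus-binding zinc finger gene, stood at 42.1, 50.9 and 44.2 CPM in the 3 Vehicle libraries, at 318, 245 and 348 with SAHA and at 446, 583 and 469 with TSA. All libraries of either inhibitor lay above all Vehicle libraries, and TSA lay above SAHA. The edgeR log2 fold change was 2.69 ± 0.17 with SAHA (adjusted p = 2.5e-07) and 3.48 ± 0.18 with TSA (adjusted p = 9.2e-09). On the linear scale these are 6.43-fold and 11.2-fold.

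Setdb1, the H3K9 methyltransferase that TRIM28 recruits, held 41.0, 31.8 and 31.0 CPM in Vehicle and 71.3, 67.9 and 70.7 with TSA. Its groups did not overlap, and it rose 2.07-fold (log2 1.05 ± 0.18, edgeR adjusted p = 1.9e-04). The SETDB1 partner Atf7ip held 53.6, 43.4 and 41.5 CPM in Vehicle and 169, 84.9 and 123 with TSA, a rise of 2.78-fold (log2 1.48 ± 0.24, edgeR adjusted p = 1.2e-04). The TSA libraries were spread widely for this gene but all lay above Vehicle. With SAHA, neither passed the test, although their libraries again lay above Vehicle: the log2 fold changes were 0.40 ± 0.18 for Setdb1 (edgeR adjusted p = 0.099) and 0.59 ± 0.24 for Atf7ip (edgeR adjusted p = 0.068). DESeq2 and limma-voom called both of them with SAHA, which gives 5 members in place of 3. Over all genes these tools also called more, 6877 and 8109 in place of 6261 by edgeR. Trim28 itself did not pass the test with either inhibitor, at log2 0.15 ± 0.20 with SAHA and 0.14 ± 0.20 with TSA. A stretch of 4.73% of the exon bases of Setdb1 is shared with Cers2 and Gm37500, and 0.4% of those of Atf7ip with Gm44140, each on the opposite strand. Reads from those stretches cannot be assigned without strand, and the strand setting is not given in the sources used here. Cers2 itself fell with TSA (log2 -3.76 ± 0.27, edgeR adjusted p = 8.2e-08).

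Ehmt2, the gene of G9a, moved the other way. Its level was 39.6, 46.2 and 31.2 CPM in Vehicle, 16.9, 10.1 and 10.7 with SAHA and 6.88, 5.75 and 2.95 with TSA. No library of either inhibitor reached the lowest Vehicle library, and the lowest TSA library held 22 counts of the gene. Ehmt2 fell 3.21-fold with SAHA (log2 -1.68 ± 0.39, edgeR adjusted p = 0.0041) and 7.35-fold with TSA (log2 -2.88 ± 0.42, edgeR adjusted p = 4.6e-05).

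The CAF-1 genes parted. Chaf1a, the large subunit, held 54.2, 56.3 and 59.2 CPM in Vehicle, 35.8, 44.1 and 38.9 with SAHA and 25.2, 29.6 and 28.5 with TSA. The 3 groups did not overlap, with TSA lowest: the log2 fold changes were -0.56 ± 0.16 with SAHA (edgeR adjusted p = 0.016) and -0.99 ± 0.17 with TSA (edgeR adjusted p = 1.6e-04). Chaf1b, the middle subunit, held 79.6, 69.4 and 76.9 CPM in Vehicle, 92.9, 120 and 103 with SAHA and 81.7, 101 and 100.2 with TSA. Every treated library lay above Vehicle, but the differences did not pass the test (log2 0.44 ± 0.21 with SAHA and 0.36 ± 0.21 with TSA). In a fit of only the groups compared both passed (edgeR adjusted p = 0.020 and 0.024), and DESeq2 called that with TSA (adjusted p = 0.048). For Chaf1a, 52.5% of the exon bases are shared with Ubxn6 on the opposite strand, and Ubxn6 fell as well, by 1.02 on the log2 scale with SAHA and by 1.54 with TSA. Without strand the reads of those bases cannot be told apart, so each value of Chaf1a may hold reads of Ubxn6. The call of Chaf1a with SAHA was lost without SAHA library 1 or 3 or without Vehicle library 2 or 3 (edgeR adjusted p = 0.051 to 0.073), and with no filter on low counts (0.093).

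Kdm1a, the gene of LSD1, held 26.5, 26.2 and 28.1 CPM in Vehicle and 46.1, 37.5 and 51.7 with TSA, a rise of 1.72-fold (log2 0.78 ± 0.20, edgeR adjusted p = 0.0044). With SAHA it held 34.4, 35.1 and 32.8 CPM, above every Vehicle library but short of the threshold (log2 0.30 ± 0.20). Morc3 held 68.3, 82.8 and 86.3 CPM in Vehicle and 53.6, 50 and 50 with TSA. It fell 1.51-fold with TSA (log2 -0.59 ± 0.17, edgeR adjusted p = 0.0070) and overlapped Vehicle with SAHA. Smchd1, which keeps genes silent on the inactive X chromosome and at imprinted loci, overlapped Vehicle in both groups (log2 0.37 ± 0.20 with SAHA and 0.08 ± 0.20 with TSA).

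TSA and SAHA, which carry the same zinc-binding hydroxamic acid group, were given at different doses, 50 and 500 nM, so the difference is one between these groups and not between compounds at a matched dose. Of the 10 members, 3 were higher with TSA than with SAHA and 1 was lower, beside 21.8% of all genes (9.79% higher, 12% lower), and 7 did not overlap, beside 46%. The higher ones were Zfp809 (log2 0.80 ± 0.16, edgeR adjusted p = 0.0038), Atf7ip (0.89 ± 0.24, adjusted p = 0.016) and Setdb1 (0.65 ± 0.18, adjusted p = 0.018). Morc3 was lower (log2 -0.64 ± 0.17, edgeR adjusted p = 0.013). For Ehmt2 the log2 difference of -1.20 ± 0.41 just missed the threshold (edgeR adjusted p = 0.0501). It passed with library size alone, with no filter, by DESeq2, by limma-voom, in a fit of only the groups compared and in one of all 27 libraries (adjusted p = 0.0015 to 0.045). Kdm1a passed with DESeq2 size factors, by DESeq2 and with a filter of 5 CPM (adjusted p = 0.025 to 0.045), and Chaf1a with library size alone (log2 -0.51, edgeR adjusted p = 0.047). For Trim28 it was -0.01 ± 0.20 and for Chaf1b -0.08 ± 0.21. Single libraries decided several of these calls: Setdb1 was lost without SAHA library 2 or 3 or TSA library 1 or 3 (edgeR adjusted p = 0.055 to 0.098) and with no filter (0.083), Atf7ip without SAHA library 1 (0.071) or TSA library 1 (0.091), and Morc3 without SAHA library 2 (0.068). The split over all called genes moved with scaling, from 45% higher with TMM to 56.9% with DESeq2 size factors and 37.3% with library size alone.

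**Figure D2:**
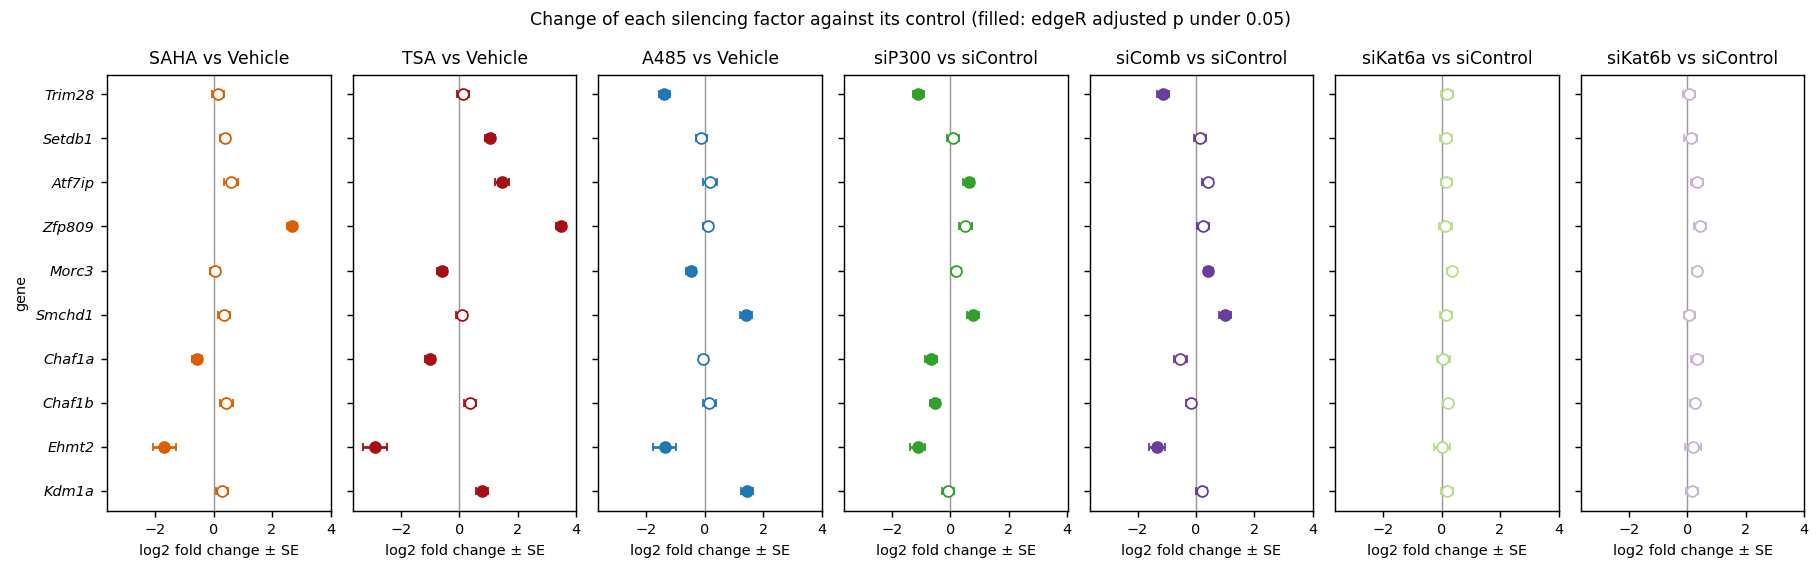
The edgeR log2 fold change of each gene (± SE) in each treated group against its control, with filled points for an adjusted p under 0.05 and open points otherwise. Zfp809 lies at 2.69 and 3.48 with SAHA and TSA and near 0 with A485, and Ehmt2 lies below 0 in SAHA, TSA, A485, siP300 and siComb.

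A485 was compared with Vehicle to see which of the factors follow a block of p300 and CBP. Kdm1a and Smchd1 rose, while Trim28, Ehmt2 and Morc3 fell. These 5 of 10 stand beside 45.5% of all genes (21.4% higher, 24.2% lower), again near the background, and 5 did not overlap with Vehicle, beside 52.5%. The members' median log2 fold change was 0.03, against -0.06 over all genes.

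Trim28, the corepressor of the KRAB zinc finger proteins, held 218, 260 and 234 CPM in Vehicle and 119, 75.2 and 87.0 with A485. The groups lay far apart, and the gene fell 2.60-fold (log2 -1.38 ± 0.20, edgeR adjusted p = 8.8e-05). Its partners Setdb1 (log2 -0.12 ± 0.18) and Atf7ip (0.17 ± 0.24) overlapped Vehicle, as did Zfp809 at 49.9, 53.6 and 49.8 CPM (log2 0.12 ± 0.16).

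Ehmt2 held 25.6, 9.60 and 11.1 CPM with A485, so that A485 library 1 stood above the other 2, yet all lay under the lowest Vehicle library. It fell 2.60-fold (log2 -1.38 ± 0.38, edgeR adjusted p = 0.0086). Kdm1a stood at 95.2, 56.6 and 73.2 CPM, above all Vehicle libraries, and rose 2.71-fold (log2 1.44 ± 0.20, edgeR adjusted p = 5.6e-05).

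Smchd1 held 39.8, 29.6 and 35.5 CPM in Vehicle and 112, 79.5 and 96.8 with A485. It rose 2.67-fold (log2 1.42 ± 0.20, edgeR adjusted p = 6.2e-05) without overlap of the groups. Morc3, at 56.3, 54.2 and 64.7 CPM, fell 1.39-fold (log2 -0.47 ± 0.16, edgeR adjusted p = 0.029), a call that was lost without A485 library 1 or 2 or Vehicle library 2 or 3 (edgeR adjusted p = 0.089 to 0.13), with library size alone (log2 -0.43, edgeR adjusted p = 0.053) and with no filter (0.16). The CAF-1 genes overlapped Vehicle, with log2 fold changes of -0.05 ± 0.16 for Chaf1a and 0.16 ± 0.21 for Chaf1b, although A485 library 3 held 121 CPM of Chaf1b against 68.5 and 69.8 in the others.

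The knockdowns asked the same of the acetyltransferases by siRNA, from the zygote on. The targeted genes themselves moved little: Ep300 in siP300 (log2 -0.43 ± 0.29, edgeR adjusted p = 0.26), Kat6a in siKat6a (-0.46 ± 0.20, adjusted p = 1) and Kat6b in siKat6b (-0.56 ± 0.27, adjusted p = 0.50) did not pass the test. In siComb, Kat6a (log2 -0.64 ± 0.20, edgeR adjusted p = 0.022) and Kat6b (-1.03 ± 0.28, adjusted p = 0.0081) fell, while Ep300 did not pass (-0.15 ± 0.29, adjusted p = 0.72). The groups are named below by the siRNA injected.

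In siP300, Smchd1 and Atf7ip rose and Trim28, Ehmt2, Chaf1a and Chaf1b fell, 6 of 10, beside 35.4% of the 19180 genes tested (19.7% higher, 15.7% lower). In siComb, Smchd1 and Morc3 rose and Trim28 and Ehmt2 fell, 4 of 10, beside 36.7% (19.6% higher, 17.1% lower). In each of the 2 groups 7 members did not overlap with siControl, beside 48.3% of all genes in siP300 and 51.8% in siComb. Both use the same siControl libraries. Median log2 fold changes of the members were 0.00 in siP300 and 0.16 in siComb, against 0.12 and 0.09 over all genes. These medians depend on the scaling: with library size alone in place of TMM the median of all genes is 0.45 in siP300 and 0.35 in siComb. Of all called genes, 55.8% were higher with TMM and 76.9% with library size alone in siP300, and 53.5% and 70.3% in siComb.

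Trim28 held 267, 267 and 233 CPM in siControl, 147, 83.2 and 127 in siP300 and 95.1, 98.7 and 145 in siComb. Every library of both groups lay below siControl. It fell 2.13-fold in siP300 (log2 -1.09 ± 0.20, edgeR adjusted p = 7.0e-04) and 2.19-fold in siComb (log2 -1.13 ± 0.20, edgeR adjusted p = 4.3e-04). Setdb1 overlapped siControl in both groups, at log2 0.09 ± 0.21 and 0.13 ± 0.21. Atf7ip held 30.7, 33.4 and 27.7 CPM in siControl, 55.3, 47.1 and 37.9 in siP300 and 41.1, 35.4 and 40.6 in siComb. It lay above siControl in every such library and passed the test in siP300 (log2 0.62 ± 0.20, edgeR adjusted p = 0.021) and not in siComb (0.40 ± 0.20, edgeR adjusted p = 0.12). With library size alone it passed in siComb too (log2 0.66, edgeR adjusted p = 0.018). The call in siP300 was lost without siControl library 1 or 3 or siP300 library 1 (edgeR adjusted p = 0.065 to 0.094).

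Ehmt2 held 20.4, 25.2 and 20.6 CPM in siControl, 12.8, 6.88 and 10.4 in siP300 and 9.78, 9.0 and 6.97 in siComb. The groups did not overlap with siControl, and the gene fell 2.18-fold in siP300 (log2 -1.12 ± 0.27, edgeR adjusted p = 0.0044) and 2.5-fold in siComb (log2 -1.32 ± 0.27, edgeR adjusted p = 0.0013). Ehmt2 thus fell in 5 of the 7 treated groups, each against its own control. The Vehicle and siControl libraries are each shared by several of these comparisons.

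Smchd1 held 38.1, 50.5 and 41.0 CPM in siControl, 71.9, 59.7 and 90.4 in siP300 and 105, 73.3 and 73.6 in siComb, all of the latter above siControl. It rose 1.72-fold in siP300 (log2 0.78 ± 0.20, edgeR adjusted p = 0.0068) and 2.00-fold in siComb (log2 1.00 ± 0.20, edgeR adjusted p = 0.0011). Morc3 was at 60.9, 67.8 and 69.8 CPM in siControl and 94.0, 76.8 and 87.4 in siComb, where it passed the threshold narrowly (log2 0.42 ± 0.16, edgeR adjusted p = 0.0498) and was lost without any 1 siControl library or without siComb library 1 or 3 (edgeR adjusted p = 0.082 to 0.17), and with no filter (0.11). In siP300 it was called with library size alone (log2 0.53, edgeR adjusted p = 0.022) and not with TMM. Kdm1a overlapped siControl in both groups (log2 -0.08 ± 0.20 in siP300 and 0.19 ± 0.20 in siComb).

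Among the CAF-1 genes, Chaf1a held 43.4, 41.0 and 28.6 CPM in siControl and 24.9, 26.9 and 19.1 in siP300, which did not overlap (log2 -0.66 ± 0.22, edgeR adjusted p = 0.027). Chaf1b held 48.7, 44.6 and 44.2 CPM in siControl and 27, 33 and 35.2 in siP300, also without overlap (log2 -0.52 ± 0.17, edgeR adjusted p = 0.023). Neither call held with library size alone, where the log2 fold changes were -0.36 for Chaf1a (edgeR adjusted p = 0.22) and -0.20 for Chaf1b (edgeR adjusted p = 0.41). The call of Chaf1a was also lost without siControl library 1 or 2 or siP300 library 3 (edgeR adjusted p = 0.089 to 0.12), and that of Chaf1b without siControl library 1 (0.079) or siP300 library 1 (0.075). Both were lost in a fit of only the groups compared (edgeR adjusted p = 0.061 and 0.070), and that of Chaf1b with no filter (0.092). Without siControl library 1, 3 of the 10 members were called in siP300 in place of 6. Ubxn6, whose reads cannot be told from those of Chaf1a over their shared bases, fell by 0.81 in siP300 on the log2 scale. In siComb neither subunit passed the test (Chaf1a log2 -0.54 ± 0.22, edgeR adjusted p = 0.062, and Chaf1b -0.18 ± 0.17), though Chaf1a was called in a fit of all 27 libraries (edgeR adjusted p = 0.033).

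No member was called in siKat6a or siKat6b by edgeR, DESeq2 or limma-voom, with 1 member at an unadjusted edgeR p under 0.05 in each. By edgeR nearly no gene of the whole table was called there either, 0% in siKat6a and 0.0209% in siKat6b (0.0104% higher and 0.0104% lower). DESeq2 called 2 and 219 of the 19180 genes, and limma-voom 0 and 10. An unadjusted edgeR p under 0.05 held for 410 genes in siKat6a and 2001 in siKat6b. In siKat6a, 4 members (Trim28, Zfp809, Morc3 and Chaf1b) lay above siControl in every library, beside 9.92% of all genes without overlap in either direction, with log2 fold changes of 0.13 to 0.35 and an edgeR adjusted p of 1. In siKat6b 1 member, Morc3, did not overlap (log2 0.34 ± 0.16, edgeR adjusted p = 0.47), beside 17.1% of all genes. Between siComb and siP300 no member was called by any of these tools or at an unadjusted edgeR p under 0.05. Of all genes edgeR called 0.798% there (0.516% higher, 0.282% lower). DESeq2 called 589 genes and limma-voom 35, and 2598 had an unadjusted edgeR p under 0.05. All 10 members overlapped, beside 15.3% of genes that did not, and the log2 differences ran from -0.27 ± 0.21 (Zfp809) to 0.35 ± 0.17 (Chaf1b).

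The inhibitor A485 and the siRNA named for p300 were set side by side by a test of the difference between their effects, each against its own control, over all 27 libraries. Of the 10 members, 2 differed: the effect on Kdm1a was higher with A485 by 1.5 ± 0.27 on the log2 scale (edgeR adjusted p = 2.4e-04), and that on Morc3 was lower, with a log2 difference of -0.69 ± 0.22 (edgeR adjusted p = 0.021). The difference for Morc3 was not called without Vehicle library 2 or 3, A485 library 2, siControl library 1 or siP300 library 1 (edgeR adjusted p = 0.052 to 0.090), with no filter (0.21) or in a fit of only the groups compared (0.081). Of all 20744 genes, 26.5% differed (10.4% higher, 16.1% lower), with a median difference of -0.31. For Trim28 (log2 -0.31 ± 0.29), Ehmt2 (-0.28 ± 0.47) and Smchd1 (0.61 ± 0.29) the difference did not pass the test. Nor did it for Chaf1b (log2 0.67 ± 0.27, edgeR adjusted p = 0.070) and Chaf1a (0.60 ± 0.27, edgeR adjusted p = 0.11). Smchd1, Chaf1a and Chaf1b were each called in part of the alternatives run. Agent, route and time of exposure differ between the groups and cannot be told apart. The split of called genes moves with scaling here too: 39.1% were higher with TMM and 25.3% with library size alone.

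Ratios of partner genes within a library do not depend on the scaling between libraries. The log2 ratio of Chaf1b to Chaf1a per kb was 1.47, 1.22 and 1.30 in the Vehicle libraries, 2.29, 2.36 and 2.33 with SAHA and 2.61, 2.7 and 2.73 with TSA. Means were 1.33 ± 0.13, 2.33 ± 0.03 and 2.68 ± 0.06, so that per kb Chaf1b exceeded Chaf1a by 2.52-fold, 5.02-fold and 6.41-fold, subject to the reads shared with Ubxn6. The joined exons span 8.85 kb for Chaf1a and 4.68 kb for Chaf1b, which raises this ratio by the same amount in every group. In counts, the Vehicle libraries held 817, 721 and 734 of Chaf1b against 556, 585 and 565 of Chaf1a. In the other 6 groups the mean log2 ratios per kb lay between 1.12 ± 0.16 (siKat6b) and 1.57 ± 0.28 (siComb), overlapping those of the controls. The ratio of Setdb1 to Trim28 was -3.51 ± 0.33 in Vehicle, -2.57 ± 0.32 with TSA and -2.22 ± 0.21 with A485. It was -3.87 ± 0.31 in siControl, -2.68 ± 0.02 in siP300 and -2.58 ± 0.31 in siComb. In these 4 treated groups every library lay above every library of its control. With TSA it was Setdb1 that rose, and in the other 3 groups Trim28 that fell. For Atf7ip over Setdb1, the means ran from -1.51 ± 0.28 in siControl to -0.81 ± 0.46 with TSA, with a spread as wide as most differences. No test of these ratios was run; the smallest p that an exact permutation test of 3 libraries against 3 can give is 0.1.

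**Figure D3:**
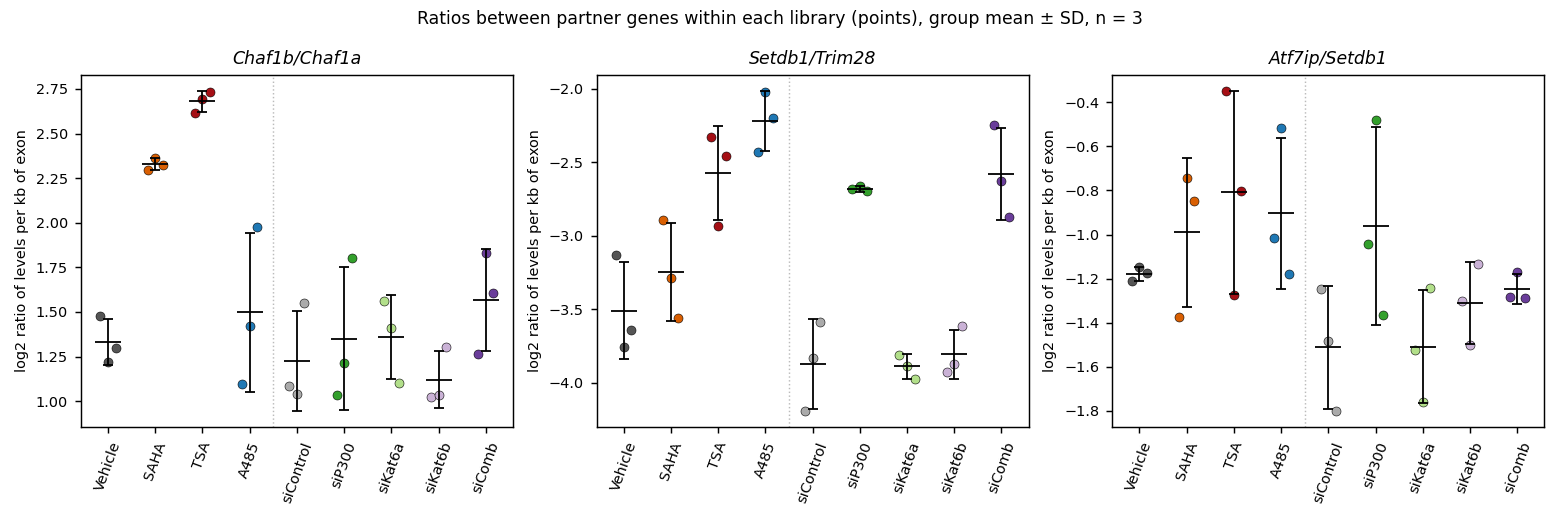
The log2 ratio of levels per kb of exon within each library, for Chaf1b to Chaf1a, Setdb1 to Trim28 and Atf7ip to Setdb1; points are libraries and bars the mean ± SD of 3. The SAHA and TSA groups stand above the rest for Chaf1b to Chaf1a, and A485, TSA, siP300 and siComb stand above their controls for Setdb1 to Trim28.

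MERVL-int, the internal region of the retrovirus, was counted in the same libraries and its level is set beside Zfp809 here. It was 4971, 2318 and 5213 CPM with SAHA and 10548, 9266 and 10217 with TSA. In Vehicle it was 13.0, 15.1 and 268, and with A485 it was 8.49, 17.2 and 6.09. Among the SAHA libraries, library 2 was the lowest for both Zfp809 and MERVL-int. Among the TSA libraries, however, library 2 was the lowest for MERVL-int and the highest for Zfp809 (583 CPM, against 446 and 469). In Vehicle library 3, too, MERVL-int was high while Zfp809, at 44.2 CPM, lay between the other 2.

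In the siRNA family, 4 libraries held far more MERVL-int than the rest of the family: siP300 library 2 (811 CPM), siKat6b libraries 1 and 3 (930 and 882) and siComb library 2 (881). Zfp809 in those libraries was 92.1, 92.4, 74.1 and 79.3 CPM. In their groups' other libraries it was 62.3 and 71.5 (siP300), 51.4 (siKat6b) and 47.6 and 56.8 (siComb), so within each of the 3 groups Zfp809 was highest where MERVL-int was. In siKat6b the other members except Trim28 and Kdm1a also stood higher in libraries 1 and 3, as did Ehmt2 (30.9 and 28.5 CPM, against 17.5). In siP300, Chaf1a and Kdm1a too were highest in library 2, by little for Kdm1a. In siComb no other member was highest in library 2. These libraries were picked by their MERVL-int level. Zfp809 passed the test in none of these groups; in siP300 its log2 fold change was 0.51 ± 0.21 (edgeR adjusted p = 0.072), and 0.33 without the 4 libraries (edgeR adjusted p = 0.17). With library size alone it was 0.83 in siP300 and passed (edgeR adjusted p = 0.0056), as it did with a filter of 5 CPM (log2 0.58, edgeR adjusted p = 0.043). The 4 libraries did not decide the calls for the other members: without them Trim28 (log2 -0.91), Ehmt2 (-0.93) and Smchd1 (0.91) were still called in siP300, as were Trim28 (-1.02), Ehmt2 (-1.33) and Smchd1 (1.11) in siComb.

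**Figure D4:**
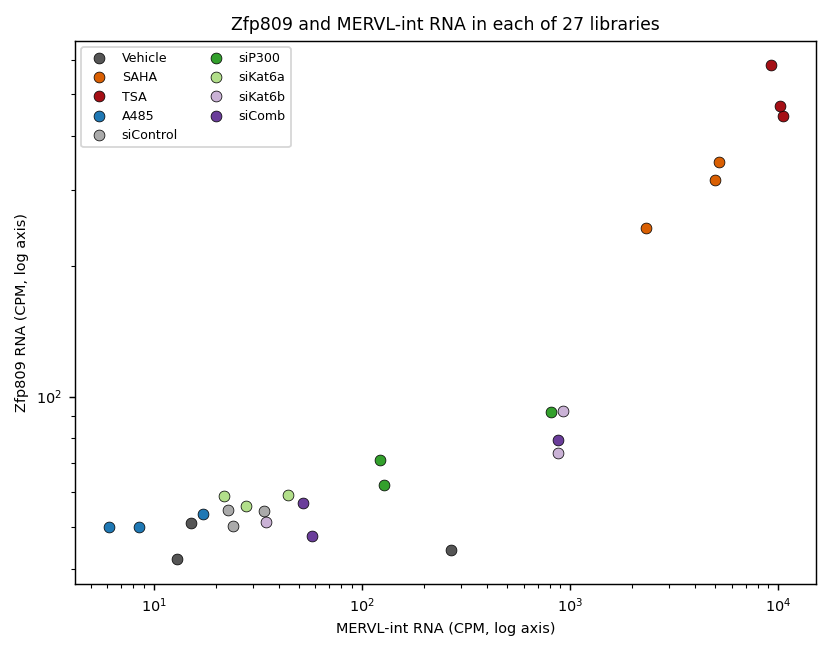
Zfp809 against MERVL-int RNA in each of 27 libraries (CPM, both axes log), coloured by group. The 3 TSA and 3 SAHA libraries lie at the top right, and Vehicle library 3 lies apart with 268 CPM of MERVL-int and 44.2 CPM of Zfp809.

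A list of 72 partner genes, of which 67 were tested, shows what moved around the members. With TSA 15 rose and 29 fell, 65.7% of those tested beside 58.1% of all genes. Their median log2 fold change was -0.37, against 0.08 over all genes. With SAHA 8 rose and 13 fell, with A485 14 and 15, in siP300 9 and 16 and in siComb 9 and 14; these shares, 31.3 to 43.3%, lie near the background of each comparison. In siKat6a and siKat6b none was called by edgeR, DESeq2 or limma-voom. At an unadjusted edgeR p under 0.05 there were 0 and 4, beside 410 and 2001 of all 19180 genes.

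Among the 10 tested genes of the KRAB zinc finger arm, 6 fell and 1 rose with TSA, beside 26.6% and 31.6% of all genes. Cbx5, the gene of the H3K9-methyl reader HP1α, went from 128, 133 and 127 CPM in Vehicle to 28.9, 27.8 and 28.4 with TSA (log2 -2.15 ± 0.17, edgeR adjusted p = 2.4e-07) and also fell with SAHA (log2 -1.33 ± 0.17, edgeR adjusted p = 4.1e-05). With A485 its level lay the other way, at 268, 207 and 181 CPM, above every Vehicle library. The zinc finger gene Zfp42 (REX1) fell by 2.81 ± 0.19 on the log2 scale with A485 (edgeR adjusted p = 8.3e-08), from 335, 290 and 339 CPM to 50.1, 52.4 and 39.0. It fell by 1.51 ± 0.22 in siP300 (edgeR adjusted p = 8.4e-05) and was lower with TSA than with SAHA (log2 -1.15 ± 0.18, edgeR adjusted p = 8.4e-04). In siP300 and in siComb, 4 of this arm fell and 0 rose, beside 15.7% and 17.1% of all genes that fell there.

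Of the 6 genes for DNA methylation, 5 fell in siP300 and 0 rose, beside 15.7% and 19.7% of all genes. The list was less one-sided in siComb and with A485, where 2 fell and 1 rose in each, 50% called beside 36.7% and 45.5% of all genes. With TSA 3 fell and 0 rose and with SAHA 2 and 0, shares of 50% and 33.3% beside 58.1% and 34.2%. Dnmt3b, a de novo methyltransferase, went from 65.7, 59.0 and 60.6 CPM in siControl to 17.4, 8.24 and 15.1 in siP300 (log2 -2.17 ± 0.22, edgeR adjusted p = 5.0e-06) and fell in siComb too (log2 -1.49 ± 0.22, edgeR adjusted p = 7.2e-05). Its cofactor Dnmt3l fell in siComb (log2 -1.71 ± 0.21, edgeR adjusted p = 1.7e-05) and with TSA (log2 -2.58 ± 0.24, edgeR adjusted p = 1.1e-06). It also fell with SAHA (log2 -1.31), with A485 (-2.10) and in siP300 (-1.20), and was lower with TSA than with SAHA (log2 -1.26 ± 0.24, edgeR adjusted p = 0.0025). Dnmt3a fell with SAHA (log2 -1.57 ± 0.26, edgeR adjusted p = 3.5e-04) and with TSA (log2 -2.20 ± 0.27, edgeR adjusted p = 9.2e-06).

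Around LSD1, 4 of 11 partners rose and 3 fell with SAHA, 63.6% called beside 34.2% of all genes. With TSA 4 rose and 3 fell, and with A485 3 rose and 1 fell. The shares called with these 2, 63.6% and 36.4%, stand beside 58.1% and 45.5% of all genes. Kdm1b, the gene of the related demethylase LSD2, rose with both: from 17.0, 16 and 20 CPM in Vehicle to 55.2, 45.3 and 44.7 with TSA (log2 1.49 ± 0.22, edgeR adjusted p = 5.2e-05) and to 94.5, 52.2 and 65.2 with A485 (log2 1.96 ± 0.22, edgeR adjusted p = 7.2e-06). Hdac2, a deacetylase of the LSD1 complexes, rose with TSA (log2 1.33 ± 0.18, edgeR adjusted p = 2.5e-05), and Phf21a, which binds unmethylated H3K4, rose in siP300 (log2 1.29 ± 0.25, edgeR adjusted p = 0.0010). Lrif1, which encodes a binding partner of SMCHD1, rose with A485 (log2 1.85 ± 0.27, edgeR adjusted p = 6.6e-05).

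Of 9 genes for other histone chaperones and their partners, 4 rose and 4 fell with TSA, and 2 rose and 3 fell in siP300, shares of 88.9% and 55.6% beside 58.1% and 35.4% of all genes. Asf1b, which hands histones to CAF-1, went from 86.9, 62.2 and 83.5 CPM in siControl to 135, 189 and 161 in siP300 (log2 1.07 ± 0.18, edgeR adjusted p = 3.8e-04) and to 236, 235 and 245 in siComb (log2 1.66 ± 0.19, edgeR adjusted p = 6.4e-06). Neither group overlapped siControl. Asf1b also stood above Vehicle (119, 106 and 125 CPM) in every library with SAHA (151, 240 and 221) and TSA (239, 260 and 425). With A485 (116, 179 and 232 CPM) it overlapped Vehicle. In siComb the SUMO ligase gene Pias1 rose (log2 1.28 ± 0.19, edgeR adjusted p = 6.9e-05). With A485, Rybp, of the polycomb complex PRC1.6, fell (log2 -2.13 ± 0.23, edgeR adjusted p = 5.5e-06); with TSA, 5 of the 8 genes of that complex fell and 0 rose, 62.5% called beside 58.1% of all genes. The H3K9 methyltransferase gene Setdb2 and the Atf7ip relative Atf7ip2 were higher with TSA than with SAHA, by 1.20 ± 0.33 (edgeR adjusted p = 0.018) and 1.29 ± 0.32 (edgeR adjusted p = 0.012) on the log2 scale. Of the HUSH complex, which silences retroelements beside TRIM28, 3 of 6 genes fell and 1 rose with TSA, 66.7% beside the same 58.1%.

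**Figure D5:**
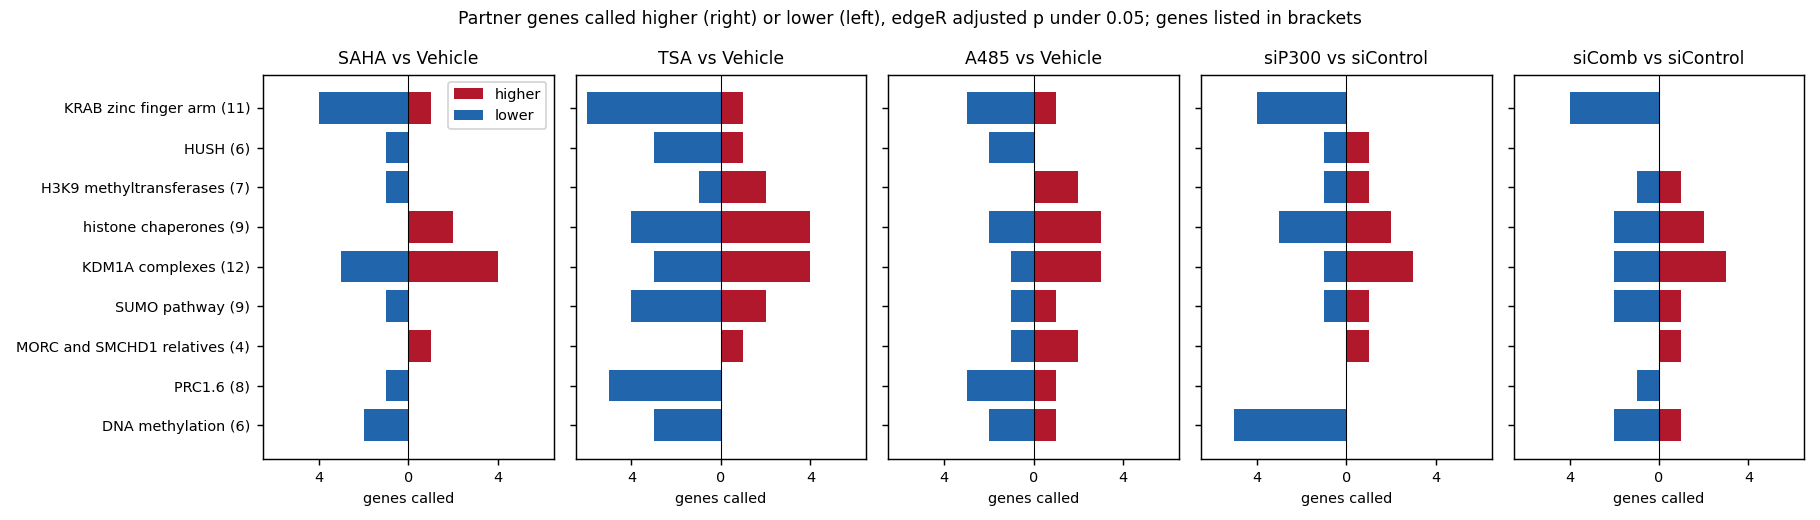
Number of partner genes in each functional list called higher (to the right) and lower (to the left) by edgeR in 5 treated groups against their controls, with the genes listed in brackets. TSA has the most calls, 15 higher and 29 lower of 67 tested; siKat6a and siKat6b, with 0 calls, are not drawn.

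Genes whose level ran most like each member over the 27 libraries were found by Pearson's r of log2(CPM + 1) among 10027 named genes with a mean of at least 5 CPM. The libraries share their groups and controls, so these values describe the groups and carry no test. For Zfp809 they were Defb35 (r = 0.98), Ercc4 (0.98) and Aqr (0.97), with Spearman's rho of 0.79, 0.80 and 0.83. For Ehmt2 they were Kat2a, an acetyltransferase gene (r = 0.93), Vasp (0.92) and Atg16l2 (0.89). For Kdm1a the list held Miga1 (0.82), its relative Kdm1b (0.82) and Ppp2cb (0.81). By Spearman's rho, which was 0.61 for Kdm1b, the 3 nearest genes of Kdm1a, Zfp809, Setdb1 and Atf7ip were all others, while the remaining 6 members kept 1 or 2 of their 3.

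Trim28 ran with Bms1 (r = 0.93), Ezr (0.93) and D10Wsu102e (0.92), and Smchd1 with Zfp318 (0.94), Pcgf3 (0.92) and Ireb2 (0.91). Chaf1a had Pex19 (0.94), the overlapping Ubxn6 (0.91) and Idh3b (0.90), whereas Chaf1b had Ywhab (0.95), Mthfd2 (0.94) and Cct8 (0.93). Setdb1 had Gtpbp1 (0.91), Poldip3 (0.90) and Slk (0.90), Atf7ip had Itsn1 (0.91), Katnbl1 (0.90) and Stau1 (0.90), and Morc3 had Hspbap1 (0.84), Ldb1 (0.84) and Cd151 (0.80). Among the members themselves, Setdb1, Atf7ip and Zfp809 ran together, with r of 0.84 for Setdb1 and Atf7ip, 0.82 for Setdb1 and Zfp809 and 0.81 for Atf7ip and Zfp809. Trim28 and Smchd1 ran opposite, with r of -0.80.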

How the data were processed

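Polyadenylated RNA from pools of morulae was amplified with a low-input kit and sequenced on an Illumina instrument, per the labels' protocols. The authors deposited raw counts per gene, made with STAR 2.7.11a and featureCounts (Subread 2.0.6), per the submitters' processing notes; MultiQC, Scanpy 1.8.2 and the builds mm10 and GRCh38 are listed there too, without roles. Not given in the sources used here are the annotation, the strandedness setting and whether pairs or single reads were counted; 84.5% of nonzero counts were even.

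Groups were taken from the sample titles. The sample files matched the series-wide table in 27 of 27 libraries, and 2 MERVL rows stayed out of library sizes and tests. Genes were tested with edgeR 4.0.16 in R 4.3.3 (quasi-likelihood, TMM, filterByExpr with a minimum count of 10), in 1 fit for each of 2 families of 12 and 15 libraries, or all 27 libraries for the difference between A485 and siP300. P-values were adjusted by Benjamini-Hochberg over all genes tested, with a threshold of 0.05. All 10 members passed the filter in both families. The test was also run on simulated counts for SAHA and siP300. These were drawn from the model that the test itself assumes, so that run cannot show how well the model holds for the real libraries. CPM of single libraries use TMM over 27 libraries; exon lengths and gene overlaps come from GENCODE on GRCm38. Positions, by this annotation, are chr7 12999114 to 13031035 for Trim28, chr3 95323525 to 95357202 for Setdb1, chr6 136506167 to 136610862 for Atf7ip, chr9 22225714 to 22243354 for Zfp809, chr16 93832121 to 93876073 for Morc3, chr17 56040439 to 56072289 for Chaf1a, chr16 93883901 to 93906115 for Chaf1b, chr17 34898469 to 34914052 for Ehmt2, chr4 136550540 to 136602723 for Kdm1a and chr17 71344489 to 71475343 for Smchd1. RefSeq promoters matched all 10 members.

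The rule for names was: all 10 members; per comparison up to 2 rising and 2 falling partner genes by adjusted p, at least 2-fold, with a mean of at least 10 CPM and no overlap; and the 3 genes most like each member. Members and lists were chosen with earlier results of these data known. Alternatives were DESeq2 1.42.0, limma-voom (limma 3.58.1), other scalings and filters, halved counts, a replicate block, other sets of samples, a 2-fold threshold and leaving out each library. Replicate numbers were not treated as pairs in the main fits, since the labels give no pairing.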

Additional observations from a re-analysis of the deposited data

Results flagged for a closer look

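For 2 of the 10 genes the effect of A485 against Vehicle differed from that of siP300 against siControl by a test of the difference itself. Of all 20744 genes, 26.5% differed, with a median log2 difference of -0.31, so 2 of 10 is near the background and is not a result about the set. For Kdm1a, the gene of LSD1, the log2 difference was 1.5 ± 0.27 (edgeR adjusted p = 2.4e-04): it stood at 75 ± 19.3 CPM with A485 against 26.9 ± 1.00 in Vehicle, and at 44.6 ± 5.28 in siP300 against 47.4 ± 5.09 in siControl (mean ± SD, 3 libraries each). For Morc3 the log2 difference was -0.69 ± 0.22 (edgeR adjusted p = 0.021), with 58.4 ± 5.57 CPM with A485 against 79.1 ± 9.51 in Vehicle, and 75.6 ± 13.9 in siP300 against 66.2 ± 4.68 in siControl. The call of Morc3 was lost with no filter (edgeR adjusted p = 0.21) and without some single libraries. The control groups themselves differ, since Kdm1a was lower in Vehicle than in siControl.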

How the results depend on the processing

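With 3 libraries against 3, the calls that were lost when a library was left out were those of Chaf1a with SAHA, Morc3 with A485, in siComb and for the difference between A485 and siP300, Atf7ip, Chaf1a and Chaf1b in siP300, and Setdb1, Atf7ip and Morc3 for TSA against SAHA. The lowest counts were those of Ehmt2 with TSA. The cause of the changes below was not tested.

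With SAHA, 5 members were called by DESeq2, by limma-voom and in a fit of only the groups compared, in place of 3. Over all genes, DESeq2 called 6877 and limma-voom 8109 there, in place of 6261. Between siComb and siP300, 4 partner genes were called with no filter and 5 by DESeq2, in place of 0. DESeq2 called 589 of all genes there, in place of 153. For the difference between A485 and siP300, 1 member was called with no filter, in a fit of only the groups compared and at 2-fold, in place of 2. A 2-fold threshold left 4 members with TSA, 2 in siP300 and 0 for TSA against SAHA. It left 9 partner genes with SAHA, 18 with TSA, 16 with A485, 7 for TSA against SAHA, 10 in siP300 and 13 in siComb. The share of all genes passing at 2-fold was not computed, so these counts are not results about the lists.

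Leaving out each library in turn gave 2 to 3 members with SAHA, 7 with TSA, 4 to 5 with A485, 2 to 4 for TSA against SAHA (2 without SAHA library 2 or TSA library 1), 3 to 6 in siP300 (3 without siControl library 1), 3 to 4 in siComb and 1 to 3 for the difference between A485 and siP300. For partner genes it gave 14 to 18 with SAHA, 34 to 37 with TSA, 24 to 35 with A485, 9 to 16 for TSA against SAHA (9 without SAHA library 2 and 11 without SAHA library 1), 18 to 26 in siP300 and 19 to 23 in siComb. Where an arm had 2 libraries left, the spread was pooled over the family.

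No called fold change of a member reversed under the alternatives run. The log2 fold changes that changed sign were all of genes not called. They were, with DESeq2 size factors, Trim28 (0.096) and Chaf1b (0.035) for TSA against SAHA, with values of 0.096 and 0.034 by DESeq2, 0.10 and 0.038 with a filter of 5 CPM, and 0.035 for Trim28 with halved counts. With library size alone they were Smchd1 with TSA (-0.0088), Kdm1a in siP300 (0.24), Chaf1b in siComb (0.081) and Setdb1 for siComb against siP300 (-0.024). With no filter they were Chaf1a with A485 (0.0049) and Ehmt2 in siKat6a (-0.00028), and by limma-voom Ehmt2 in siKat6a (-0.0029). Without the 4 siRNA libraries high in MERVL-int they were Zfp809 (-0.041), Chaf1b (-0.0078), Ehmt2 (-0.32) and Smchd1 (-0.17) in siKat6b and Setdb1 for siComb against siP300 (-0.015).

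When single libraries were left out, signs changed within these ranges of the log2 fold change. With SAHA, Morc3 ran from -0.050 to 0.17 and Trim28 from -0.0097 to 0.23. With A485, Setdb1 ran from -0.22 to 0.025, Chaf1a from -0.088 to 0.034 and Chaf1b from -0.17 to 0.39. With TSA, Smchd1 ran from -0.037 to 0.18 and Trim28 from -0.011 to 0.24, and against SAHA, Chaf1b from -0.16 to 0.014 and Trim28 from -0.19 to 0.14. In siP300, Setdb1 ran from -0.11 to 0.30 and Kdm1a from -0.15 to 0.028. In siKat6a, Ehmt2 ran from -0.12 to 0.12 and Chaf1a from -0.11 to 0.18. In siKat6b, Setdb1 ran from -0.0037 to 0.19, Smchd1 from -0.060 to 0.20 and Trim28 from -0.0056 to 0.091. For siComb against siP300, Trim28 ran from -0.28 to 0.16, Ehmt2 from -0.39 to 0.030, Setdb1 from -0.13 to 0.24 and Chaf1a from -0.023 to 0.25.

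Most same-numbered libraries did not deviate together: of 48 pairs, 3 had a correlation over 0.1, and the median was 0.0016. The extremes were 0.36 for library 2 of siP300 and siComb and -0.35 for library 2 of siKat6b and siComb. The labels give no pairing. With the replicate number as a block, Morc3 in siComb was not called (log2 0.41, edgeR adjusted p = 0.073) and Ehmt2 was called for TSA against SAHA (log2 -1.22, edgeR adjusted p = 0.018), and 3, 7, 5, 6 and 3 members were called with SAHA, TSA, A485, siP300 and siComb.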
